A study of Mus musculus with 18 samples.

Results

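The proteasome genes were taken as every gene whose symbol is Psm followed by a letter from a to g, a number and any further letters, which gave 50 genes in each of the 3 expression tables. The tables list 19710 genes for MPPs, the same number for CD115- CDPs and 18378 for CLPs. The symbol also takes in *Psme2b*, a copy of *Psme2* with which it could share reads, and *Psmc3ip*, which is not a proteasome subunit but a recombination factor named for binding one. RNA was sequenced from bone marrow progenitors of C57BL/6 mice aged 6 to 8 weeks, sorted by surface markers into 3 populations. All were lineage-negative and FLT3+. Multipotent progenitors (MPPs) were further CD34+, Sca-1+ and CD117+, the CD115- fraction of the common dendritic cell progenitors (CD115- CDPs) was CD117int without CD127 or CD11c, and common lymphoid progenitors (CLPs) were CD127+, CD117+ and Sca-1+ without CD11c. The WT mice were Trim33fl/fl and the KO mice Trim33fl/fl Cre-ERT2, in which a tamoxifen-activated Cre recombinase removes exons 2 to 4 of *Trim33* throughout the body; their libraries are called KO by label alone. Both genotypes carried the floxed allele and received 2 mg of tamoxifen on 5 days followed by 7 days without it, but only the KO mice carried Cre. Each genotype of a population had 3 libraries, which the labels call biological repeats, making 18. The steps between low FPKM values, a unit scaled to depth and transcript length, placed the depth at about 19200000 to 21300000 mapped reads per library.

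*Trim33* itself was listed at 10.4, 10.1 and 8.78 FPKM in WT MPPs and at 9.71, 11.7 and 4.80 FPKM in the MPP libraries labelled KO 1, 2 and 3. In CD115- CDPs it was 14.3, 15.2 and 8.27 FPKM in WT and 9.64, 8.28 and 4.03 FPKM in KO libraries, and in CLPs 12.4, 7.01 and 8.86 and 7.52, 5.60 and 7.66 FPKM. The genotypes overlapped in all 3 populations, and *Trim33* passed nowhere without the block (log2 fold changes -0.22, -0.74 and -0.37, adjusted p = 0.63, 0.528 and 0.255, limma). With the replicate number as a block it passed in CD115- CDPs (adjusted p = 0.0258). A value over the whole gene is a weak check on the loss of a few exons, and the libraries are named here by their label. The gate markers were present in WT libraries where the sort called for them. In WT MPPs *Cd34* was 451, 441 and 497 FPKM, *Flt3* 264, 265 and 272 FPKM, *Kit* (CD117) 71.6, 74.8 and 71.7 FPKM and *Ly6a* (Sca-1) 59.3, 60.2 and 76.4 FPKM. *Flt3* was 239.9, 233 and 147 FPKM in WT CD115- CDPs, and *Il7r* (CD127) was 63.0, 32.6 and 33.9 FPKM in WT CLPs. Some markers that a gate excludes were not at 0: *Csf1r* (CD115) was 57.0, 39.1 and 137 FPKM in WT and 11.4, 9.24 and 37.2 FPKM in KO libraries of CD115- CDPs, and *Itgax* (CD11c) was 61.0, 69.7 and 54.8 FPKM in WT and 5.36, 5.92 and 7.47 FPKM in KO libraries of CLPs. Gate markers also differed between genotypes. In the KO libraries of MPPs *Kit* was 29.9, 34.7 and 49.9 FPKM and *Ly6a* 39.3, 33.9 and 43.1 FPKM, both lower than in WT (limma, adjusted p = 0.0434 and 0.0425), and in those of CLPs *Cd34* was 219.7, 228 and 212 FPKM against 156, 151 and 135 in WT and *Kit* 18.6, 18.9 and 22.4 FPKM against 13.8, 13.3 and 11.5, both higher (adjusted p = 0.00611 and 0.0124). The part of these differences in the proteasome values was not tested.

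The proteasome is the protease that degrades proteins marked with ubiquitin. Its 20S core is a stack of rings of alpha and beta subunits, of which the subunits beta1, beta2 and beta5 cut peptide bonds, and the 19S particle, with a ring of ATPases and a set of non-ATPase subunits, binds ubiquitinated proteins, removes the ubiquitin and feeds them into the core. Cells of the immune system, and other cells under interferon-gamma, can build an immunoproteasome in which beta1i (*Psmb9*), beta2i (*Psmb10*) and beta5i (*Psmb8*) take the places of beta1 (*Psmb6*), beta2 (*Psmb7*) and beta5 (*Psmb5*), which alters the peptides offered to MHC class I molecules. The PA28 cap of *Psme1* and *Psme2* is an alternative activator that interferon-gamma also induces.

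In GRCm38, the build of mm10, *Psmb9* (Entrez 16912) lies at chr17:34182030-34187330 and *Psmb8* (16913) at chr17:34198195-34201454, inside the MHC class II region on either side of *Tap1* (chr17:34187556-34197225), with *Tap2* following at chr17:34204479-34216321. *Psmb10* (19171) is at chr8:105935728-105938392, *Psmb6* (19175) at chr11:70525324-70527858, *Psmb7* (19177) at chr2:38588046-38643952 and *Psmb5* (19173) at chr14:54614120-54617995. The promoters of the catalytic genes are printed because these genes carry the contrast of induced and constitutive subunits; *Psmb7* had no matching entry. Each is the RefSeq window (GRCm38.p6) from 250 bases before to 50 bases after the start site, read on the gene's own strand, at chr17:34187281-34187580 on the minus strand for *Psmb9*, chr17:34197945-34198244 on the plus strand for *Psmb8*, chr8:105938343-105938642 on the minus strand for *Psmb10*, chr11:70525107-70525406 on the plus strand for *Psmb6* and chr14:54617946-54618245 on the minus strand for *Psmb5*. Capitals mark every match, on either strand, to 4 motifs: the interferon-stimulated response element as GAAA, any 2 bases and GAAA again, the gamma-activated sequence as TTCNNNGAA, the NF-Y box as CCAAT, and an antioxidant-type element of the kind bound by NRF1 and NRF2 as TGACNNNGC.

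Psmb9: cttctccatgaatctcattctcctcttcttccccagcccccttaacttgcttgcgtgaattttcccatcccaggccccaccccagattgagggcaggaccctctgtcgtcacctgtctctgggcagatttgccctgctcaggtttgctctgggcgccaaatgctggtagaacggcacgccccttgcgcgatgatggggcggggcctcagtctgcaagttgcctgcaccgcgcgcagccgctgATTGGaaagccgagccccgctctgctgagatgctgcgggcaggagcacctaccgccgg
Psmb8: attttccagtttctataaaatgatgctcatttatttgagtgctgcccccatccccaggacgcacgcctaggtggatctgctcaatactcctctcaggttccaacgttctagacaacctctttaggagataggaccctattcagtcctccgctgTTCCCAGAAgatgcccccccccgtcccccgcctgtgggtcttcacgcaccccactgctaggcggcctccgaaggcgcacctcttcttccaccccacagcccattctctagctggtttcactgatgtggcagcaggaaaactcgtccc
Psmb10: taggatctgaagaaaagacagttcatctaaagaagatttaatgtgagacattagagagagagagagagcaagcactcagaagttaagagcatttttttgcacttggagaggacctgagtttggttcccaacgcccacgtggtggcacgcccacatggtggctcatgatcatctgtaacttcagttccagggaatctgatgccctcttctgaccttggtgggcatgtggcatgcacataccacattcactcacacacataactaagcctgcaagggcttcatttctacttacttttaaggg
Psmb6: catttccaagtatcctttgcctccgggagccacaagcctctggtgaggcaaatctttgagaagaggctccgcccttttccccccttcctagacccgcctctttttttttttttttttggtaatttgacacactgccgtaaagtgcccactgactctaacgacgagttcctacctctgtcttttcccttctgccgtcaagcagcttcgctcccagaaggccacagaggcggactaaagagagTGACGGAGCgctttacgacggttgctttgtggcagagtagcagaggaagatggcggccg
Psmb5: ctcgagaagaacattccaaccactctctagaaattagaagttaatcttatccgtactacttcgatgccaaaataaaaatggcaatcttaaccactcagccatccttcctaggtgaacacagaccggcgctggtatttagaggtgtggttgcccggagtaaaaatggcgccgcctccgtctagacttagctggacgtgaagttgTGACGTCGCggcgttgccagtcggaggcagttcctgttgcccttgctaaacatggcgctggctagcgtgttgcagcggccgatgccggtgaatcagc

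*Psmb9* had a CCAAT match alone (read as ATTGG on its strand), *Psmb8* a TTCNNNGAA match, *Psmb10* no match to any of the 4, and *Psmb6* and *Psmb5* each a TGACNNNGC match near the start site. The *Psmb9* window overlaps that of *Tap1* by 275 bases, since the 2 genes run in opposite directions from start sites 226 bases apart. RefSeq windows were matched for 42 of the 50 proteasome genes. Among these 42, CCAAT was found in 15 genes (35.7%, against 37.4% of the 32851 promoter windows of all genes), TGACNNNGC in 6 (14.3% against 12.4%: *Psmb5*, *Psmb6*, *Psmc6*, *Psmd12*, *Psmd9* and *Psme4*), the interferon-stimulated element in 5 (11.9% against 3.44%: *Psmb3*, *Psmd4*, *Psmd9*, *Psme1* and *Psmg4*) and TTCNNNGAA in 3 (7.14% against 8.30%: *Psmb8*, *Psmd2* and *Psmg1*). The proteasome genes were counted as genes and the background as windows, so the percentages are in unlike units. The motifs are short, and a match is a run of letters and not a measured binding site. No entry was matched for *Psma8*, *Psmb1*, *Psmb2*, *Psmb7*, *Psmc3*, *Psmd3*, *Psmd7* and *Psmg2*.

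The proteasome genes were abundant throughout. Of the 50, 44 were above 10 FPKM in all 18 libraries and 17 had a mean above 100 FPKM, where a transcript of 1000 bases collects about 2032 reads at this depth. FPKM is scaled to transcript length, which allows a rough comparison of levels between genes. That scaling does not correct for reads shared between near copies. *Psmb8* was the most abundant, with a mean of 278 FPKM over the 18 libraries, a lowest value of 209 and a highest of 403 FPKM, and *Psme1*, the alpha subunit of PA28, followed with a mean of 277 FPKM. These 2 interferon-inducible genes had higher means than every subunit of the constitutive core. The non-catalytic beta subunits *Psmb1* to *Psmb4* had means of 107 to 178 FPKM and the 7 subunits of the alpha ring 51.9 to 173 FPKM. The constitutive catalytic subunits ranged from 118 to 132 FPKM, the 6 ATPases from 50.5 to 109.6 FPKM and the 11 non-ATPase subunits of the 19S particle from 38.5 to 134 FPKM. Among the assembly chaperones, which act in passing and are not part of the finished particle, *Psmg1* to *Psmg4*, for the core, had means of 17.6 to 43.4 FPKM, and *Psmd5*, *Psmd9* and *Psmd10*, for the 19S base, 12.7 to 25.4 FPKM.

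At the bottom were the genes of restricted expression. *Psmb11*, the catalytic subunit of the thymus, lay between 0.25 and 0.870 FPKM and was under 0.5 FPKM in 9 of 18 libraries. It was tested in CLPs alone, because in the other populations its mean was below the minimum of 0.5 FPKM. *Psma8*, the alpha subunit of the testis, lay between 0.690 and 2.86 FPKM, and *Psme2b* between 0.620 and 8.41 FPKM. The summed FPKM of the 50 genes was 0.738 to 0.794% of the library total in WT MPPs, 0.709 to 0.873% in WT CD115- CDPs and 0.749 to 0.832% in WT CLPs. For 34 of the 50 genes the highest library was less than 2 times the lowest.

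The induced and constitutive catalytic subunits were compared site by site as the log2 ratio of FPKM + 1. At the beta5 site the immunoproteasome gene was the higher in 18 of 18 libraries, with ratios of *Psmb8* to *Psmb5* between 0.94 and 1.55. At the beta2 site it was the lower in 18 of 18, with ratios of *Psmb10* to *Psmb7* between -1.30 and -0.38. The beta1 site was mixed, with *Psmb9* above *Psmb6* in 13 of 18 libraries and ratios between -0.84 and 0.72. The order of the induced and the constitutive gene thus differed between the 3 sites of the same libraries.

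**Figure D1:**
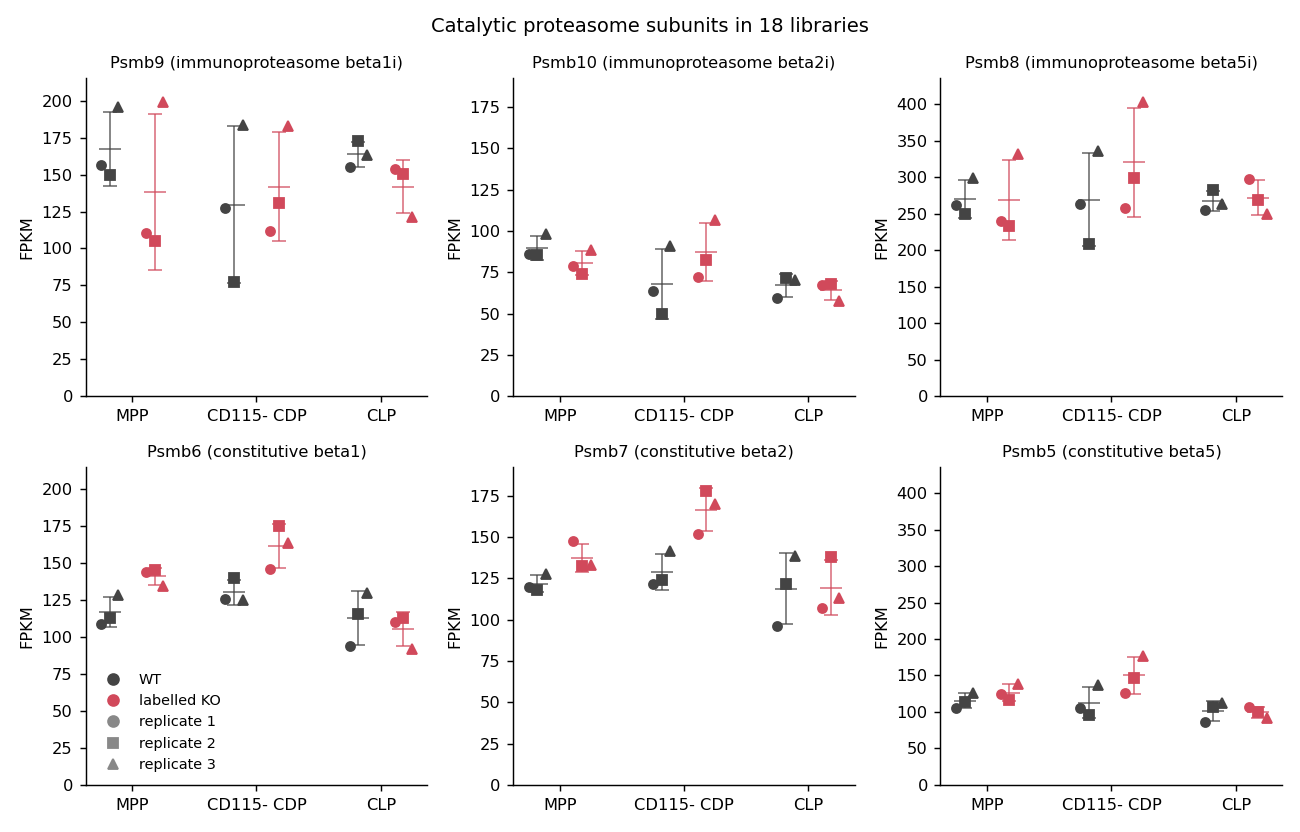
FPKM (linear axis from 0) of the 3 immunoproteasome genes (top) and their constitutive counterparts (bottom) in the 18 libraries, by population and genotype. Points are libraries, their shape the replicate number, and bars the mean ± SD of 3. Psmb6 and Psmb7 lie higher in every KO library than in any WT library of MPPs and of CD115- CDPs, and Psmb9 is low in MPP KO 1 and KO 2 but not in KO 3.

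In MPPs, no proteasome gene passed the test for a difference between KO-labelled and WT libraries (limma, adjusted p of at most 0.05): 0 of 49 tested, where 3.84% of all 12372 genes tested passed. At an unadjusted p under 0.05 there were 8 higher (4.45% of all genes) and 2 lower (19.8%). The groups did not overlap for 15 genes that were higher in all KO libraries (30.6% of 49, against 6.98% of all genes) and for 1 that was lower (2.04%, against 23.3%). Fold changes are KO over WT on the log2(FPKM + 1) scale, with the standard error (SE) of the fit. The median log2 fold change of the 49 was 0.11, beside -0.11 over all genes tested. It ranged from 0.06 without WT 1 to 0.14 without WT 3. Scaling by median ratios brought the median of all genes close to 0, a shift of 0.10, and the median of the proteasome genes to 0.22. Fewer cells of a type and less RNA per cell cannot be told apart in these bulk libraries.

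Among the catalytic subunits of MPPs, *Psmb6* was 109, 113 and 129 FPKM in WT and 144, 145 and 135 FPKM in KO libraries (log2 fold change 0.27, SE 0.0901, adjusted p = 0.143). *Psmb7*, beta2, was 119.8, 118 and 128 FPKM in WT and 147, 132 and 133 FPKM in KO libraries (log2 fold change 0.17, SE 0.0809, adjusted p = 0.24). Both sat higher in every KO library than in any WT library. *Psmb5* was 106, 114 and 126 FPKM in WT and 125, 116 and 139 FPKM in KO libraries, with overlap (log2 fold change 0.14, SE 0.104, adjusted p = 0.412). The immunoproteasome gene *Psmb9* was 156, 149.6 and 196 FPKM in WT and 111, 105 and 199 FPKM in KO libraries (log2 fold change -0.33, SE 0.254, adjusted p = 0.423). KO 1 and KO 2 were thus below all WT libraries and KO 3 above them. *Psmb10* was 86.0, 85.4 and 97.9 FPKM in WT and 78.7, 74.1 and 88.6 FPKM in KO libraries (log2 fold change -0.16, SE 0.103, adjusted p = 0.355). *Psmb8* stood at 262, 249 and 299.6 FPKM in WT and 241, 233 and 332 FPKM in KO libraries (log2 fold change -0.02, SE 0.153, adjusted p = 0.932). The signs of *Psmb8* and of *Psme1* depended on the scaling, their log2 fold changes being 0.10 and 0.08 with median ratios. With FPKM as deposited, the 3 constitutive genes had fitted changes above 0 and the 3 immunoproteasome genes below 0, but none passed. Without WT 3, KO 1 or KO 2 the value of *Psmb8* was above 0 (0.05, 0.05 and 0.07). That of *Psmb10* was -0.04 with median ratios and -0.09 without WT 3. *Psmb5* was at 0.08 without WT 1 and at 0.07 without KO 3.

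The immunoproteasome genes made up 60.1, 58.4 and 60.8% of the summed FPKM of the 6 catalytic genes in WT MPPs, and 50.8, 51.2 and 60.4% in the libraries labelled KO 1, KO 2 and KO 3. The mean log2 ratio over the 3 sites was 0.43 ± 0.07 in WT and 0.07 ± 0.30 in KO MPPs (SD, n = 3). At the beta2 site the groups did not overlap, with ratios of -0.47, -0.46 and -0.38 in WT and -0.90, -0.83 and -0.58 in KO libraries. At the beta1 site KO 1 and KO 2 were at -0.38 and -0.47 while KO 3, at 0.56, was inside the WT range.

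**Figure D2:**
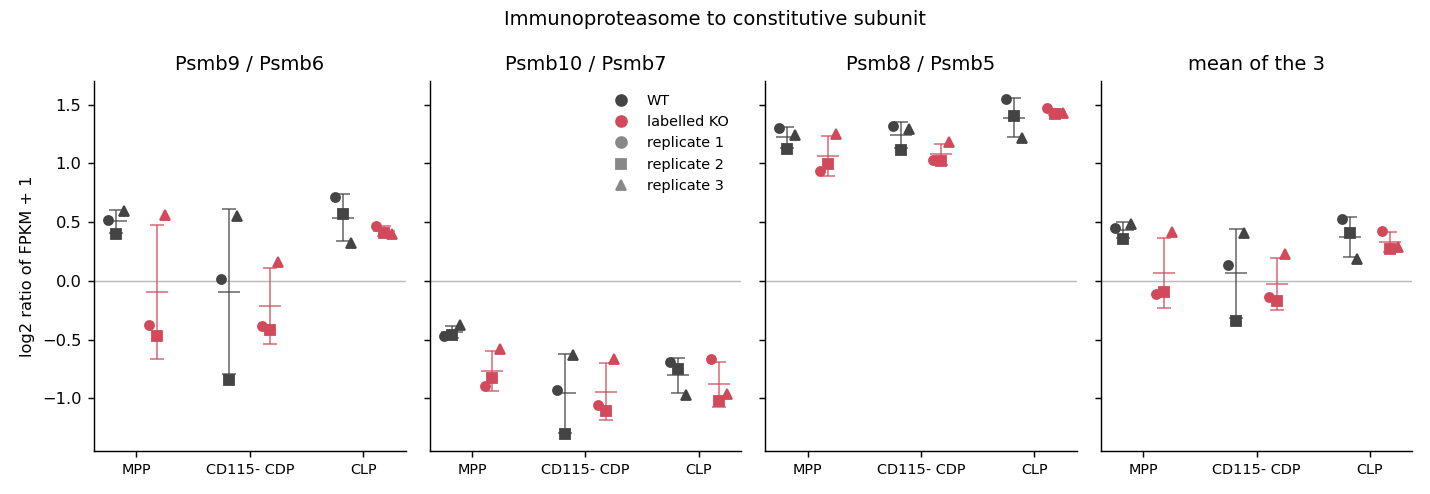
Log2 ratio of FPKM + 1 of each immunoproteasome gene to its constitutive counterpart, and the mean of the 3 sites, in the 18 libraries (bars, mean ± SD of 3). The Psmb8 ratio is above 0 and the Psmb10 ratio below 0 in all 18, and for the mean of the 3 sites the MPP libraries labelled KO 1 and KO 2 lie at -0.11 and -0.10, below the 3 WT libraries and KO 3.

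The highest fitted fold changes in KO MPPs were those of 2 non-ATPase subunits of the 19S particle and an ATPase, followed by *Psmb6*, though none passed. *Psmd8*, a lid subunit, was 106, 105 and 109 FPKM in WT and 152, 155 and 125 FPKM in KO libraries (log2 fold change 0.42, SE 0.101, adjusted p = 0.0743). *Psmd11*, another lid subunit, was 32.1, 33.9 and 30.04 FPKM in WT and 45.5, 50.5 and 33.9 FPKM in KO libraries (log2 fold change 0.41, SE 0.156, adjusted p = 0.181). *Psmc3*, an ATPase of the base, was 93.9, 89.3 and 99.2 FPKM in WT and 119, 117 and 111 FPKM in KO libraries (log2 fold change 0.30, SE 0.0783, adjusted p = 0.0916). Each of these 3 was higher in all KO libraries than in any WT library, and in *Psmd8* and *Psmd11* KO 3 was nearest to WT. Of the 6 ATPases 4 did not overlap, of the 11 non-ATPase subunits 5, of the 7 alpha subunits 1 (*Psma3*), of the 4 non-catalytic beta subunits 1 (*Psmb4*), and of the 3 constitutive catalytic subunits 2, in each case with KO higher, where 6.98% of all genes were. *Psme3* and *Psmf1* made up the 15. It was 0 of 4 for the core chaperones, 0 of 3 for those of the 19S base, 0 of 3 for the immunoproteasome genes and 0 of 2 for PA28.

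At the other end stood *Psme2b*, 5.32, 5.23 and 2.63 FPKM in WT and 0.940, 1.02 and 3.34 FPKM in KO libraries (log2 fold change -1.02, SE 0.371, adjusted p = 0.165), a low value that may include reads from *Psme2*. The latter was itself at 122, 120.3 and 147 FPKM in WT and 124, 118 and 149 FPKM in KO libraries (log2 fold change 0.01, SE 0.124, adjusted p = 0.961). *Psma8* was 2.15, 2.60 and 2.86 FPKM in WT and 1.27, 0.820 and 1.79 FPKM in KO libraries (log2 fold change -0.64, SE 0.184, adjusted p = 0.11). This gene was lower in all KO libraries. *Psmg2*, a chaperone of the alpha ring, was 27.9, 28.5 and 35.1 FPKM in WT and 21.2, 19.6 and 33.8 FPKM in KO libraries (log2 fold change -0.32, SE 0.215, adjusted p = 0.367). *Psme1* was 286, 288 and 336 FPKM in WT and 291, 275 and 317 FPKM in KO libraries (log2 fold change -0.04, SE 0.0964, adjusted p = 0.803).

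The library labelled KO 3 decided these counts. *Trim33* was at 4.80 FPKM in KO 3, below the WT values of 8.78 to 10.4 FPKM. In KO 1 and KO 2 it was at 9.71 and 11.7 FPKM, not below WT. Without KO 3, 14 of 49 proteasome genes passed, where 54.3% of all genes did, so the proteasome genes passed less often than genes at large. Of the 14, 8 were higher (*Psmb4*, *Psmb6*, *Psmc3*, *Psmc4*, *Psmc6*, *Psmd1*, *Psmd8* and *Psmd11*) and 6 lower (*Psma8*, *Psmb9*, *Psmd7*, *Psme2b*, *Psmg2* and *Psmg3*). Of all genes 15.5% passed as higher and 38.8% as lower. The log2 fold change of *Psmb9* was then -0.62 (standard error 0.122, limma adjusted p = 0.00729), that of *Psmb6* 0.31 (adjusted p = 0.0245) and that of *Psmd8* 0.52 (adjusted p = 0.00154), while *Psmb8* (-0.18, adjusted p = 0.138) and *Psmb10* (-0.23, adjusted p = 0.0585) did not pass. Without KO 1 or KO 2 the log2 fold change of *Psmb9* was -0.20 or -0.16, and neither passed. Markers of other cells differed between the MPP groups as well, in the fit of all 6 libraries, in which 3.52% of all genes were lower. Of 12 erythroid markers 11 were lower, with sums of 573, 547 and 575 FPKM in WT and 136, 144 and 189 FPKM in KO libraries, *Car2* being the most abundant and none at 0 in all libraries. Of 12 neutrophil markers 4 were lower, with sums of 3517, 3623 and 3639 FPKM in WT and 2618, 1585 and 1667 FPKM in KO libraries, mostly *Mpo*. Of 10 monocyte and macrophage markers tested 7 were lower, with sums of 137, 142 and 129 FPKM in WT and 91.9, 65.7 and 58.9 FPKM in KO libraries, *Ly6c2* being the most abundant. Of the B cell, T and NK cell and dendritic markers 2 of 10, 1 of 5 and 1 of 12 tested were lower and none higher. Their part in the proteasome values was not tested.

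In CD115- CDPs, again no proteasome gene passed, 0 of 49 where 0.106% of all 12229 genes did. The fitted change was above 0 for 46 of the 49 genes (93.9%, against 40% of all genes), with a median log2 fold change of 0.25 beside -0.07 over all genes. When the FPKM were rescaled to TPM, the median of all genes moved to -0.19, that of the proteasome genes to 0.13, and 41 of 50 were above 0. The groups did not overlap for 17 genes higher in all KO libraries (34.7%, against 7.68% of all genes) and for 0 lower (10.6% of all genes). At an unadjusted p under 0.05 there were 7 higher (4.54% of all genes) and 1 lower (5.99%).

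Same-numbered libraries of CD115- CDPs deviated together, as did WT 1 with KO 2 and WT 2 with KO 1 (r over genes of 0.38 and 0.66). With the replicate number as a block 7 of 49 passed, 6 higher and 1 lower. Of all genes 3.78% passed as higher and 5.56% as lower. The 6 higher genes are given with the log2 fold change. They were the alpha subunits *Psma3* (0.40, blocked adjusted p = 0.0466), *Psma5* (0.45, 0.0446) and *Psma6* (0.37, 0.049). With them were the ATPase *Psmc1* (0.38, 0.0473), the lid subunit *Psmd7* (0.46, 0.0365) and the core chaperone *Psmg1* (0.65, 0.0264). *Psmg1* was 17.7, 15.2 and 27.0 FPKM in WT and 24.6, 27.2 and 44.0 FPKM in KO libraries, higher in the KO library of each pair. *Psmd7* was 40.8, 36.5 and 65.0 FPKM in WT and 52.3, 51.2 and 96.5 FPKM in KO libraries, also higher in each pair although the groups overlap. The gene that was lower was *Psme2b*, at 3.74, 2.01 and 8.41 FPKM in WT and 1.16, 0.620 and 2.24 FPKM in KO libraries (log2 fold change -1.19, SE 0.462, adjusted p = 0.455, 0.0189 if blocked). Without replicate pair 1, 2 or 3 the blocked counts were 0, 2 (1 higher, 1 lower) and 1 (lower), the genes being *Psmg1* and *Psme2b* without pair 2 and *Psme2b* without pair 3, where 0.0573, 6.3 and 4.4% of all genes passed in either direction. Dendritic markers differed between the same libraries: with the block 7 of 13 tested were lower (1 without it, *Itgax*). Their sums were 1118, 814 and 1606 FPKM in WT and 499, 655 and 518 FPKM in KO libraries, mostly *Irf8*. Of 8 monocyte and macrophage markers tested 4 were lower with the block and 0 without it. The T and NK cell markers summed to 31.5, 36.8 and 44.9 FPKM in WT and 74.9, 71.2 and 74.8 FPKM in KO libraries, without overlap, *Nkg7* being the most abundant. With the block 1 of 5 tested was higher (*Nkg7*) and 1 lower (*Cd3g*), and 0 passed without it. Their part in the proteasome values was not tested.

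The constitutive catalytic genes of CD115- CDPs had higher values in the KO libraries, though none passed. *Psmb6* was 126, 139.8 and 125 FPKM in WT and 146, 175 and 164 FPKM in KO libraries (log2 fold change 0.31, SE 0.123, adjusted p = 0.465, 0.0728 if blocked). *Psmb7* was 122, 124 and 142 FPKM in WT and 152, 178 and 169.8 FPKM in KO libraries (log2 fold change 0.37, SE 0.125, adjusted p = 0.408, 0.0587 if blocked). Neither overlapped. *Psmb5* was 105, 95.8 and 137 FPKM in WT and 126, 147 and 177 FPKM in KO libraries (log2 fold change 0.42, SE 0.190, adjusted p = 0.512, 0.0531 if blocked), higher in each pair but overlapping between groups. The sum of the 3 was 353, 359 and 403 FPKM in WT and 424, 501 and 510.5 FPKM in KO libraries, without overlap, as it was in MPPs (335, 345 and 382 and 416, 394 and 406 FPKM).

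None of the immunoproteasome genes of CD115- CDPs passed, with or without the block. *Psmb9* was 128, 77.4 and 184 FPKM in WT and 112, 131 and 183 FPKM in KO libraries (log2 fold change 0.19, SE 0.339, adjusted p = 0.9, 0.519 if blocked). *Psmb10* was 63.4, 49.5 and 91.0 FPKM in WT and 72.4, 82.2 and 106 FPKM in KO libraries (log2 fold change 0.38, SE 0.257, adjusted p = 0.66, 0.107 if blocked), higher in the KO library of each pair. *Psmb8* stood at 263, 209 and 336 FPKM in WT and 259, 299.7 and 403 FPKM in KO libraries (log2 fold change 0.25, SE 0.232, adjusted p = 0.765, 0.207 if blocked). In all 3 genes WT 2 was the lowest library and replicate 3 the highest of its genotype, and the sign of *Psmb9* turned without WT 2 (-0.14). Of the PA28 genes, *Psme1* gave 239.7, 219 and 280.1 FPKM in WT and 264, 306 and 334 FPKM in KO libraries (log2 fold change 0.29, SE 0.145, adjusted p = 0.539). *Psme2* gave 136, 113 and 214 FPKM in WT and 132, 157 and 186 FPKM in KO libraries (log2 fold change 0.07, SE 0.258, adjusted p = 0.961). The mean log2 ratio of immunoproteasome to constitutive genes was 0.13, -0.34 and 0.40 in WT and -0.14, -0.17 and 0.23 in KO libraries. The groups overlap. Between same-numbered libraries the log2 ratio of *Psmb8* to *Psmb5* was lower in KO in each pair, with differences of -0.29, -0.095 and -0.11. At the beta1 site and at the beta2 site the ratio was higher in KO in 1 of 3 pairs. The remaining members at the ends of the order were *Psmb3* (0.46), a non-catalytic beta subunit, *Psme4* (-0.31), the nuclear activator PA200, *Psma8* (-0.13) and *Psmd11* (0.04, -0.08 with TPM), all on the log2 scale and none passing.

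**Figure D3:**
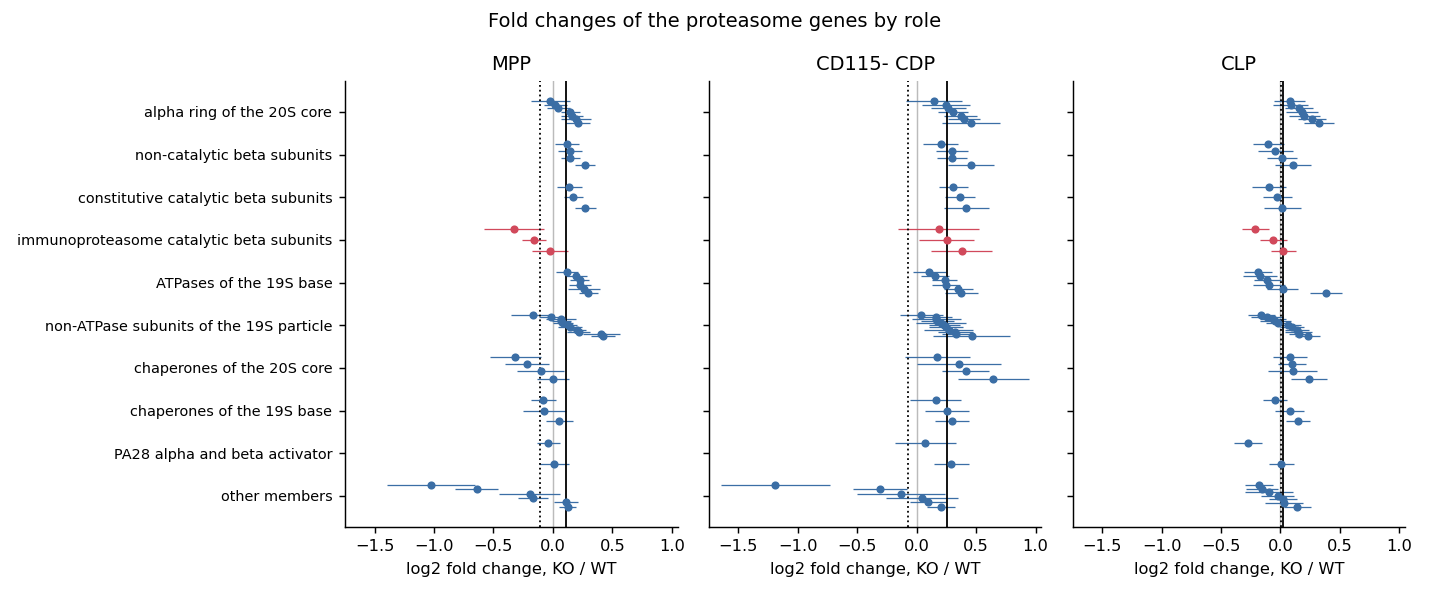
Log2 fold change (KO-labelled over WT, on FPKM + 1) of each tested proteasome gene with its standard error, grouped by role, in the 3 populations; immunoproteasome genes are in red. The solid vertical line is the median of the proteasome genes and the dotted line that of all genes tested, 0.11 and -0.11 in MPPs, 0.25 and -0.07 in CD115- CDPs, and 0.02 and 0.01 in CLPs.

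In CLPs, 0 of 50 proteasome genes passed, with or without the block, where 14.3% of all 12339 genes passed (20.9% with the block). The median log2 fold change was 0.02, beside 0.01 over all genes. Its sign was not stable: it was -0.02 with TPM, where 23 of 50 genes were above 0 (29 with FPKM as deposited) and the median of all genes was -0.03, and -0.06 without WT 1. The groups did not overlap for 4 genes higher in all KO libraries (8.00%, against 15.3% of all genes) and for 2 lower (4.00%, against 18.6%). At an unadjusted p under 0.05 there were 2 higher (13.4% of all genes) and 1 lower (16.2%). The dendritic markers of the same libraries differed widely, where 5.41% of all genes were higher and 8.92% lower (12.5% with the block), 7 of 12 tested being lower and 1 higher, with 2 not tested for low values. Their sums were 2169, 2163 and 1982 FPKM in WT and 421, 408 and 454 FPKM in KO libraries, mostly *Irf8*. Of 12 neutrophil markers 0 passed without the block and 10 were lower with it, with sums of 474, 1004 and 433 FPKM in WT and 242, 417 and 376 FPKM in KO libraries. Of 5 monocyte and macrophage markers tested 3 were lower, with sums of 206, 251 and 227 FPKM in WT and 19.9, 27.4 and 30.1 FPKM in KO libraries, *Ly6c2* being the most abundant and *C1qc* at 0 in all KO libraries. Of 7 erythroid markers tested 4 were lower, with sums of 73.7, 54.1 and 62.7 FPKM in WT and 26.8, 39.5 and 40.7 FPKM in KO libraries, *Car2* being the most abundant. Of 10 B cell markers 2 were higher and 1 lower (2 and 4 with the block), with sums of 448, 771 and 1014 FPKM in WT and 380.3, 714 and 714 FPKM in KO libraries, lowest in replicate 1 of both genotypes and *Vpreb1* being the most abundant. Of 4 T and NK cell markers tested 1 was higher and 2 were lower, with sums of 32.1, 39.6 and 45.0 FPKM in WT and 69.8, 84.6 and 77.6 FPKM in KO libraries, mostly *Nkg7*. Their part in the proteasome values was not tested.

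The constitutive genes of CLPs overlapped between genotypes. *Psmb6* was 93.9, 116 and 130.02 FPKM in WT and 111, 113 and 92.1 FPKM in KO libraries (log2 fold change -0.10, SE 0.141, adjusted p = 0.699). *Psmb7* gave 96.1, 121 and 139 FPKM in WT and 107, 138 and 113 FPKM in KO libraries (log2 fold change 0.01, SE 0.156, adjusted p = 0.961). *Psmb5* gave 86.4, 106 and 113 FPKM in WT and 107, 99.9 and 91.9 FPKM in KO libraries (log2 fold change -0.03, SE 0.123, adjusted p = 0.915). Among the immunoproteasome genes, *Psmb9* was 155, 172 and 163 FPKM in WT and 154, 151 and 121 FPKM in KO libraries (log2 fold change -0.21, SE 0.117, adjusted p = 0.273), lower in all KO libraries. *Psmb10* was 59.2, 71.7 and 70.1 FPKM in WT and 67.2, 67.6 and 57.5 FPKM in KO libraries (log2 fold change -0.06, SE 0.114, adjusted p = 0.771). *Psmb8* gave 255, 282 and 264 FPKM in WT and 297, 269 and 249.7 FPKM in KO libraries (log2 fold change 0.02, SE 0.107, adjusted p = 0.911). The fitted changes of *Psmb7*, *Psmb8* and *Psme1* turned below 0 when FPKM were rescaled to TPM. Leaving out a single library could turn the signs of these genes and of *Psmb5*, *Psmb6* and *Psmb10*, with ranges given below. The mean log2 ratio over the 3 sites was 0.37 ± 0.17 in WT and 0.33 ± 0.09 in KO CLPs (SD, n = 3).

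The largest fitted changes in CLPs were those of *Psmc6*, an ATPase, at 41.7, 31.8 and 40.05 FPKM in WT and 43.2, 51.8 and 53.6 FPKM in KO libraries (log2 fold change 0.38, SE 0.134, adjusted p = 0.0963), and of the alpha subunit *Psma1*. The latter was at 80.2, 80.5 and 85.2 FPKM in WT and 88.3, 121 and 101 FPKM in KO libraries (log2 fold change 0.32, SE 0.125, adjusted p = 0.126). Both were higher in all KO libraries. Among the rises, *Psma3* (0.27) and *Psmg1* (0.24) followed on the log2 scale. *Psme2* was 119.8, 151 and 148 FPKM in WT and 115, 122 and 107 FPKM in KO libraries (log2 fold change -0.27, SE 0.118, adjusted p = 0.163). It passed when WT 1 was left out (log2 fold change -0.38, limma adjusted p = 0.034), where 10.7% of all genes passed as lower. *Psme1*, its partner in PA28, was 234, 269 and 270.4 FPKM in WT and 259, 267 and 249.9 FPKM in KO libraries (log2 fold change 0.01, SE 0.102, adjusted p = 0.967). *Psmc4*, an ATPase, was at -0.19 and the inhibitor *Psmf1* (PI31) at -0.18.

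The KO effect was then compared between populations in a fit over all 18 libraries. It differed for 0 of 49 proteasome genes by the interaction test, where 2.45% of all 12421 genes passed, and with the block 0 of 49 against 8.67%. At an unadjusted p under 0.05 there were 4 without the block, against 15.8% of all genes, and 11 with it, against 33%. The smallest p-values belonged to 3 ATPases of the 19S base. *Psmc4* had log2 fold changes of 0.23, 0.24 and -0.19 (MPPs, CD115- CDPs, CLPs; interaction adjusted p = 0.131, limma). *Psmc3* had values of 0.30, 0.25 and -0.17 (adjusted p = 0.21) and *Psmc1* values of 0.23, 0.38 and -0.10 (adjusted p = 0.298). Each was above 0 in MPPs and CD115- CDPs and below 0 in CLPs. Without CLP WT 1, 2 genes passed, *Psmc3* and *Psmc4*, where 2.57% of all genes did.

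Between the WT populations few proteasome genes differed, and since each population has a table of its own, population and table cannot be told apart. Between CD115- CDPs and MPPs 3 of 49 passed, where 5.14% of all 12528 genes were higher and 16.8% lower in CD115- CDPs. *Psmd8* was higher (log2 difference 0.47, standard error 0.122, adjusted p = 0.025) and *Psmg1* (log2 difference -0.69, standard error 0.211, adjusted p = 0.047) and the base chaperone *Psmd5* (log2 difference -0.47, standard error 0.127, adjusted p = 0.031) were lower. The levels of *Psmg1* were 32.2 ± 5.18 FPKM in MPPs, 19.97 ± 6.21 FPKM in CD115- CDPs, 21.2 ± 2.81 FPKM in CLPs (SD, n = 3). Between CLPs and MPPs 2 passed, both lower in CLPs (10.7% of all genes higher and 14.4% lower): *Psma8* (log2 difference -0.85, standard error 0.228, adjusted p = 0.0253) and *Psma1* (log2 difference -0.44, standard error 0.142, adjusted p = 0.0498). Between CLPs and CD115- CDPs 1 passed (8.16% higher and 2.71% lower), *Psmc6*, which was lower in CLPs (log2 difference -0.65, standard error 0.133, adjusted p = 0.0199) at 50.4 ± 0.995 FPKM in MPPs, 59.8 ± 7.67 FPKM in CD115- CDPs, 37.8 ± 5.31 FPKM in CLPs. The split of these calls by direction changed with the scaling. With median ratios 2 were higher and 0 lower in CD115- CDPs than in MPPs (7.72% and 13.1% of all genes), and with TPM 2 were higher and 1 lower in CLPs than in MPPs (13.9% and 10.6%).

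Of the 6 catalytic genes, *Psmb8* had the highest and *Psmb10* the lowest mean in each of the 3 WT populations. *Psmb8* was 270.2 ± 26.2 FPKM in MPPs, 269 ± 63.8 FPKM in CD115- CDPs, 267 ± 13.8 FPKM in CLPs (SD, n = 3 for each level here). *Psmb9* was 167 ± 24.8 FPKM in MPPs, 129.6 ± 53.2 FPKM in CD115- CDPs, 164 ± 8.68 FPKM in CLPs. *Psmb10* was 89.8 ± 7.06 FPKM in MPPs, 68.0 ± 21.1 FPKM in CD115- CDPs, 67.0 ± 6.79 FPKM in CLPs. *Psmb5* was 115 ± 10.3 FPKM in MPPs, 113 ± 21.4 FPKM in CD115- CDPs, 102 ± 13.8 FPKM in CLPs. *Psmb6* was 117 ± 10.4 FPKM in MPPs, 130.2 ± 8.25 FPKM in CD115- CDPs, 113 ± 18.2 FPKM in CLPs. *Psmb7* was 122 ± 5.07 FPKM in MPPs, 129 ± 10.9 FPKM in CD115- CDPs, 119 ± 21.5 FPKM in CLPs. None of these 6 passed in any of the 3 contrasts, the smallest adjusted p being 0.144 for *Psmb10* in CD115- CDPs against MPPs. The other members with the largest fitted differences were *Psmd7*, *Psma7*, *Psmd11*, *Psmg4*, *Psmd13*, *Psmc4*, *Psmc3* and *Psmd2*, of which *Psmd7* spanned the widest range, from -0.59 in CD115- CDPs against MPPs to 0.48 in CLPs against CD115- CDPs. These counts rested on single libraries: without any 1 of the 3 WT MPP libraries 0 passed in either contrast with MPPs, and without CD115- CDP WT 3 the counts were 14, 10 and 6 (4 higher and 10 lower, 2 and 8, 4 and 2), where 17.5% (higher) and 34.5% (lower), 17.5% (higher) and 23.5% (lower) and 27.1% (higher) and 14.2% (lower) of all genes passed.

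Many proteasome genes were highest in replicate 3 of MPPs and of CD115- CDPs, in both genotypes. In MPPs replicate 3 was the highest library in both genotypes for 28 of 49 genes (57.1%, against 32.7% of all genes tested), and in CD115- CDPs for 35 of 49 (71.4%, against 46.6%). In CLPs the counts were 1, 4 and 1 of 50 for replicates 1, 2 and 3 (2, 8 and 2%, against 22.7, 14.4 and 5.54% of all genes). For part of the genes the lowest library also had the same number in both genotypes. It was replicate 1 of CLPs for 16 of 50 genes (32.0%, against 15.7% of all genes), replicate 1 of CD115- CDPs for 12 of 49 (24.5%, against 5.42%) and replicate 2 of MPPs for 15 of 49 (30.6%, against 20.2%). The median deviation of the proteasome genes from their mean over 6 libraries was -0.19, -0.26 and 0.06 in WT CD115- CDPs and -0.02, 0.12 and 0.30 in the KO ones, on the log2 scale. The neutrophil markers of CD115- CDPs, 12 of 12 tested and none at 0, were high in the same replicate: their sums were 697, 761 and 4526 FPKM in WT and 1071, 803 and 4453 FPKM in KO libraries, mostly *Mpo*, so that both replicate 3 libraries stood apart. The monocyte and macrophage markers summed to 206, 139 and 997 FPKM in WT and 48.8, 38.6 and 159 FPKM in KO libraries, mostly *Ly6c2*. The 10 immediate early genes summed to 5922, 4033 and 4295 FPKM in WT and 5039.6, 5091 and 3169 FPKM in KO libraries, *Nr4a1* being the most abundant. Their part in the proteasome values was not tested.

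**Figure D4:**
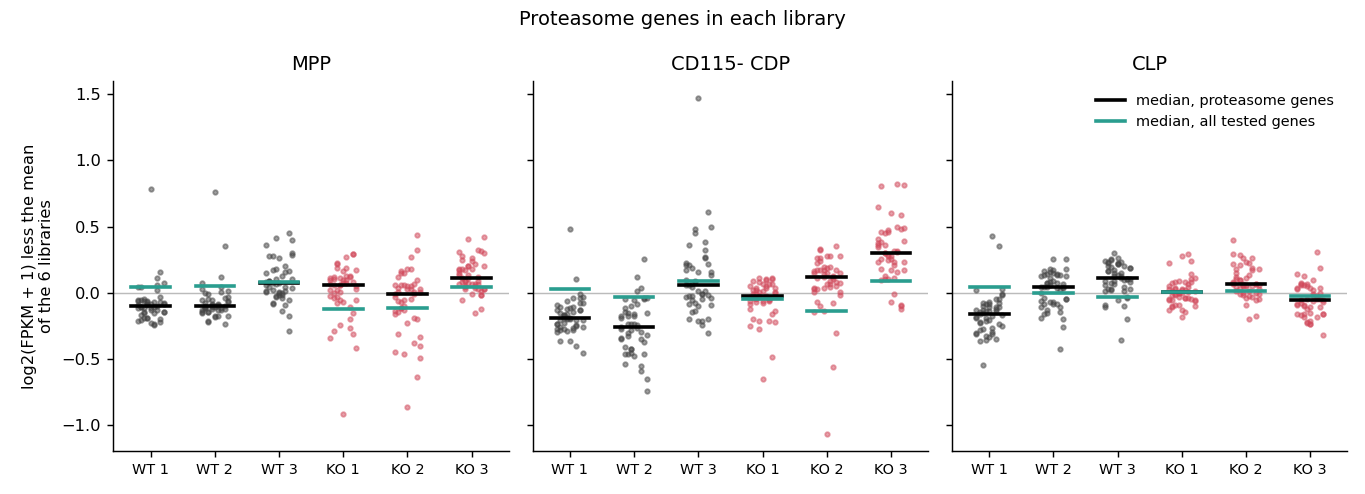
Deviation of each tested proteasome gene in each library from its mean over the 6 libraries of the population, on the log2(FPKM + 1) scale (points, genes; black bars, median of the proteasome genes; green bars, median of all genes tested). In CD115- CDPs the black bar lies at -0.19, -0.26 and 0.06 in WT 1, 2 and 3 and at -0.02, 0.12 and 0.30 in KO 1, 2 and 3.

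Lists of genes that work with the proteasome are read beside the shares of all genes that passed, given above for each population (14.3% in CLPs). The 3 subunits without a Psm symbol had 0 in any population, with *Adrm1*, the ubiquitin receptor of the base, at 83.9, 79.95 and 76.6 FPKM in WT and 120.03, 132 and 86.8 FPKM in KO libraries of MPPs (log2 fold change 0.47, SE 0.158, adjusted p = 0.149). Of 8 associated factors, none passed in MPPs or CD115- CDPs and 2 were higher in CLPs, AI314180, the adaptor known as ECM29, and *Usp14*, the deubiquitinase that docks on the 19S particle. *Usp14* was at 12.5, 10.1 and 12.04 FPKM in WT and 16.3, 16.2 and 15.9 FPKM in KO libraries (log2 fold change 0.46, SE 0.110, adjusted p = 0.028) and AI314180 was at 24.4, 18.9 and 19.2 FPKM in WT and 30.8, 28.5 and 29.5 FPKM in KO libraries (log2 fold change 0.50, SE 0.119, adjusted p = 0.0268). *Pomp*, the maturation factor of the core and the most abundant of them, was 118, 143 and 156 FPKM in WT and 134, 143 and 119.7 FPKM in KO libraries of CLPs (log2 fold change -0.06, SE 0.128, adjusted p = 0.786). Of 17 genes of ubiquitin, its shuttles and the segregase none passed without the block. With the block, *Rad23b*, a shuttle, and *Rps27a*, a ubiquitin fusion with a ribosomal protein, were higher in CD115- CDPs (log2 fold changes 0.37 and 0.39, blocked adjusted p = 0.0494 and 0.0388), and *Rps27a* was higher in CLPs as well (log2 fold change 0.43, 0.0419 if blocked).

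Of 11 genes for the control of proteasome transcription, 1 passed, *Stat3*, which was lower in CLPs at 39.3, 35.2 and 28.1 FPKM in WT and 21.7, 22.2 and 24.1 FPKM in KO libraries (log2 fold change -0.56, SE 0.132, adjusted p = 0.0252). *Nfe2l1* (NRF1), the activator of proteasome genes when degradation is impaired, was 26.7, 26.2 and 26.1 FPKM in WT and 27.8, 29.9 and 23.4 FPKM in KO libraries of MPPs (log2 fold change 0.03, SE 0.114, adjusted p = 0.871). Its values in CD115- CDPs were 19.4, 25.2 and 20.1 FPKM in WT and 24.4, 25.0 and 20.2 FPKM in KO libraries. Those in CLPs were 26.2, 25.9 and 25.1 FPKM in WT and 26.5, 24.4 and 23.2 FPKM in KO libraries. *Nfya*, a subunit of NF-Y, passed with the block in CD115- CDPs (log2 fold change -0.54, SE 0.161, adjusted p = 0.367, 0.0259 if blocked).

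Of 12 class I processing genes, 2 passed, both in CLPs, where the peptide-trimming protease *Erap1* was higher (log2 fold change 0.60, SE 0.141, adjusted p = 0.025) and *Tapbp*, tapasin, lower (log2 fold change -0.55, SE 0.129, adjusted p = 0.0251). With the block *H2-D1*, a class I heavy chain that may share reads with its near copies, was lower there too (log2 fold change -0.37, SE 0.112, adjusted p = 0.0611, 0.0464 if blocked). *Tap1*, which shares its start region with *Psmb9*, was 108, 101 and 115 FPKM in WT and 82.0, 97.6 and 128 FPKM in KO libraries of MPPs (log2 fold change -0.09, SE 0.164, adjusted p = 0.721). As with *Psmb9*, KO 1 and KO 2 were below all WT MPPs and KO 3 above them. In CLPs *Tap1* was 148, 154 and 131 FPKM in WT and 132, 133 and 111 FPKM in KO libraries (log2 fold change -0.20, SE 0.114, adjusted p = 0.274). *Tap2* was 165, 154 and 168 FPKM in WT and 131, 163 and 204 FPKM in KO libraries of MPPs. *B2m*, the most abundant of the list, was 1430.05, 1404 and 1585 FPKM in WT and 1441, 1336 and 1222 FPKM in KO libraries.

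Of the 19 genes of interferon signalling and response, 5 were lower in MPPs (among them *Irf7*, *Gbp2*, *Ifit3* and *Mx1*), none passed in CD115- CDPs without the block, and 7 were lower in CLPs (among them *Stat2*, *Irf7*, *Irf9*, *Ifnar2*, *Mx1* and *Usp18*) with 2 higher (*Gbp2* and *Gbp3*). *Irf7*, a regulator of type I interferon genes, was 29.3, 26.7 and 33.0 FPKM in WT and 15.8, 13.7 and 16.9 FPKM in KO libraries of MPPs (log2 fold change -0.90, SE 0.127, adjusted p = 0.019). In CLPs it was 38.6, 31.3 and 38.1 FPKM in WT and 13.1, 17.9 and 14.7 FPKM in KO libraries (log2 fold change -1.19, SE 0.138, adjusted p = 0.000852). *Irf1*, which is known to drive *Psmb9* and *Tap1* transcription and was the most abundant of the list, was 99.4, 109 and 96.2 FPKM in WT and 189.8, 217 and 74.4 FPKM in KO libraries of MPPs (log2 fold change 0.52, SE 0.381, adjusted p = 0.402). In CD115- CDPs *Irf1* was 123, 140.00 and 50.9 FPKM in WT and 172, 210.3 and 65.6 FPKM in KO libraries (log2 fold change 0.48, SE 0.545, adjusted p = 0.825, 0.0323 if blocked), and *Stat2* was the other gene of the list that passed there with the block, as lower (log2 fold change -0.86, 0.017). In MPPs *Irf1* was highest in KO 1 and KO 2, the libraries in which *Psmb9* was lowest. A relation between these genes was not tested. The median log2 fold change of the list was -0.22, -0.23 and -0.15 for the 3 populations, MPPs first and CLPs last. That of the 3 immunoproteasome genes was -0.16, 0.25 and -0.06 in the same order, and that of all genes tested -0.11, -0.07 and 0.01. Of 10 immediate early genes 7 were lower in MPPs, *Egr1* most (log2 fold change -3.02, SE 0.132, adjusted p = 0.000568), and 0 passed in the other populations without the block. With it *Atf3* was higher in CD115- CDPs (log2 fold change 0.55, 0.0298 if blocked), and in CLPs *Atf3* was higher (0.48, 0.0243) while *Egr1* (-1.19, 0.0142) and *Egr2* (-0.58, 0.0236) were lower.

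**Figure D5:**
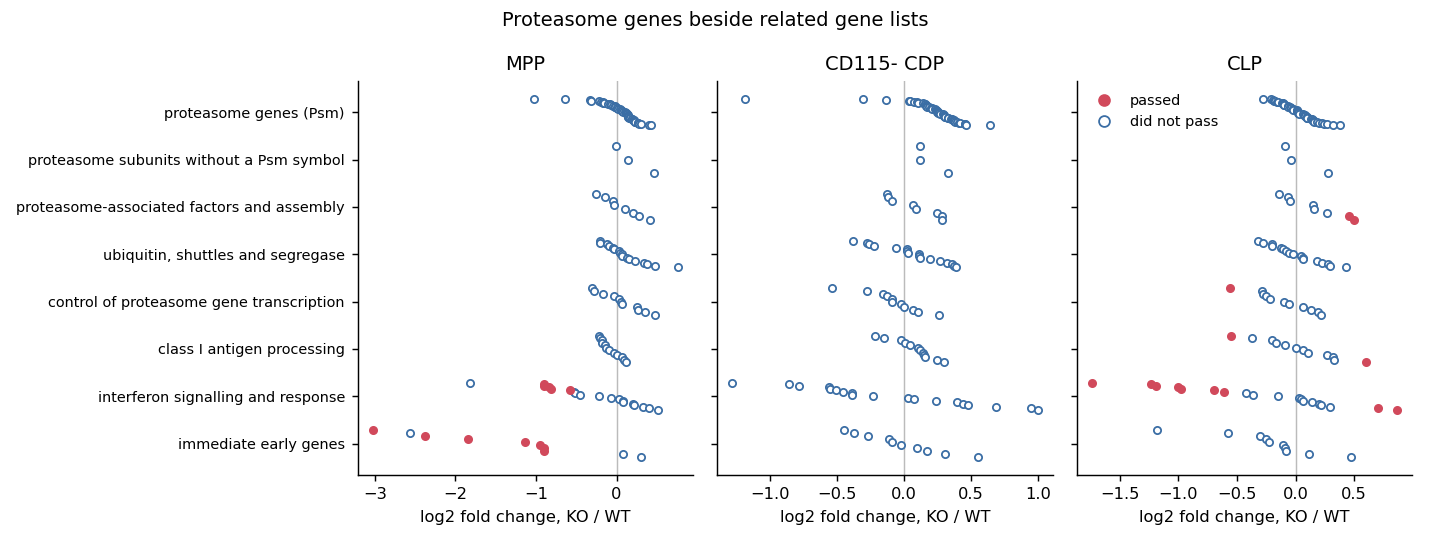
Log2 fold change (KO-labelled over WT) of each tested gene of the proteasome set and of 7 related lists in the 3 populations, with an x axis scaled for each panel. Filled red points passed the limma test without the replicate block; none of the proteasome genes did, while 5 interferon genes in MPPs and 9 in CLPs did.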

How the data were processed

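RNA of 18 libraries was enriched for poly-A mRNA and sequenced as single-end reads of 50 bases on a BGISEQ-500; strand marking is not stated. The authors filtered reads with SOAPnuke and, per the submitters' processing notes, used HISAT2 2.0.4, Bowtie2 2.2.5 and RSEM 1.2.12 with mm10; the authors deposited FPKM, in a table for each population, rounded to hundredths. No counts were used, so no count test was run. The mapped depth was estimated at 19200000 to 21300000 reads per library from the steps of low FPKM, at which a 2000-base transcript with 1 read has 0.0246 FPKM. WT replicates 1 and 2 of MPPs were the closest pair, with a median absolute log2 difference of 0.0472 over genes above 20 FPKM.

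Values were tested as log2(FPKM + 1) with limma 3.58.1 (R 4.3.3, trended prior variance) over all genes whose mean over the libraries fitted reached 0.5 FPKM, and p-values were adjusted over all of them by the Benjamini-Hochberg method, with a threshold of 0.05. KO was compared with WT within each population, the interaction over 18 libraries and the WT populations over 9. Fold changes are on the log2(FPKM + 1) scale and understate the change of low genes. Same-numbered libraries deviated together in CD115- CDPs (r over genes of 0.437, 0.671 and 0.790 for replicates 1, 2 and 3). They did so in CLPs too (0.400, 0.329 and 0.131), and a fit with the replicate number as a block is given for both. In MPPs the first pair fell below 0.1 (0.0382, 0.482 and 0.472). Some differently numbered libraries were about as close. In CD115- CDPs r was 0.38 for WT 1 with KO 2 and 0.66 for WT 2 with KO 1. In CLPs it was 0.23 for WT 3 with KO 2. The other differently numbered pairs of these populations were below 0. Taken from the mean of a genotype, the deviations make the r of different pairs depend on one another. The pairing by number is thus weak for replicates 1 and 2 of CD115- CDPs and for WT 3 of CLPs. The labels call the samples biological repeats without naming the animals, and p-values measure the spread between these samples. Named were the 6 catalytic genes, *Psme1* and *Psme2*, the 4 largest fitted changes each way per population, the 3 smallest interaction p-values, the 3 largest WT differences each way, and, of the related lists, genes that passed, up to 4 a list and population by the smallest p, and the most abundant of each marker list. Outside this rule, *Adrm1*, *Pomp*, *Nfe2l1*, *Tap1*, *Tap2*, *B2m*, *Irf1*, *Atf3*, the gate markers, further genes that passed and genes that passed with the block alone were chosen after their values were seen. The members and lists were chosen with earlier results of these data known. Alternatives changed the pseudocount, filter, scaling, variance trend and block, and left out each library. A gene of the interferon list is not reported here by name. The scripts were tested on simulated data. Promoter windows came from RefSeq (GRCm38.p6). Python 3.11.15, pandas 2.3.3, numpy 2.4.6 and matplotlib 3.10.9 were used.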

Additional observations from a re-analysis of the deposited data

Results flagged for a closer look

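*Psmf1*, which encodes the proteasome inhibitor PI31, had values above those of WT in all KO libraries of MPPs and below them in all KO libraries of CLPs, and passed in neither (limma, adjusted p = 0.497 and 0.347). It was 11.9, 12.2 and 12.1 FPKM in WT and 13.3, 13.5 and 12.4 FPKM in KO libraries of MPPs, 1.085 times as high in the mean, and 8.91, 10.97 and 9.19 FPKM in WT and 8.57, 8.68 and 7.97 FPKM in KO libraries of CLPs, 0.868 times as high. The interaction across the 3 populations did not pass (limma, adjusted p = 0.443, or 0.249 if blocked by replicate number), the difference between CLPs and MPPs being -0.29 with a standard error of 0.147 on the log2 scale. It overlapped in CD115- CDPs (log2 fold change 0.09). Of all genes tested, 6.98% were higher in all KO libraries of MPPs and 18.6% lower in all those of CLPs.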

How the results depend on the processing

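Of the values compared under other settings, 170 summary values and 520 values of single genes kept their direction and their side of the threshold or moved by less than the spread, 38 summary values moved by more, 35 of single genes turned sign and 13 newly passed. Without filter 1 proteasome gene, *Psmd1*, passed in MPPs (higher, as did 0.375% of all genes); with median ratios the median of the 49 was 0.22. With 1 library left out, or, added after seeing the data, both libraries of a replicate number under the block, between 0 and 24 genes passed in MPPs (24 with the block without replicate 3, 17 higher and 7 lower, where 16.9% and 38.2% of all genes passed), 0 and 2 in CD115- CDPs (6.3% of all genes at 2) and 0 and 3 in CLPs (25.7% at 3), between 0 and 2 for the interaction (2.57% at 2), and between 0 and 14, 0 and 10 and 0 and 6 for CD115- CDPs against MPPs, CLPs against MPPs and CLPs against CD115- CDPs. With the replicate block 0 passed in MPPs, 7 in CD115- CDPs, 0 in CLPs, 0 for the interaction, and 5, 5 and 1 in those 3 contrasts (21.7, 24.2 and 8.57% of all genes); the block in MPPs and between populations rests on a shared number alone. For CLPs against MPPs, 1 passed with a pseudocount of 0.1 (23.7% of all genes), 1 without filter (20.8%), 0 with a filter at 5 FPKM (21%), which leaves *Psma8* out, and 1 without a trend (24.8%). For CLPs against CD115- CDPs, 3 passed with median ratios (10.2% of all genes) and 2 with TPM, over each table or over shared genes (16.3% for both). Signs of log2 fold changes near 0 turned. With median ratios in MPPs *Psmb8* was 0.10 and *Psme1* 0.080. With TPM *Psme2* was -0.0069 in MPPs and -0.052 in CD115- CDPs, *Psmd11* -0.083 in CD115- CDPs, and *Psmb7*, *Psmb8* and *Psme1* -0.021, -0.013 and -0.028 in CLPs. With libraries left out, MPP values ranged from -0.18 to 0.070 for *Psmb8*, -0.095 to 0.036 for *Psme1* and -0.087 to 0.10 for *Psme2*; CD115- CDP values from -0.14 to 0.48 for *Psmb9*, -0.12 to 0.33 for *Psme2*, -0.46 to 0.14 for *Psma8* and -0.10 to 0.18 for *Psmd11*; and CLP values from -0.14 to 0.053 for *Psmb5*, -0.22 to 0.0084 for *Psmb6*, -0.13 to 0.13 for *Psmb7*, -0.043 to 0.083 for *Psmb8*, -0.15 to 0.014 for *Psmb10* and -0.060 to 0.045 for *Psme1*. Apart from the smaller gene sets and sample numbers these settings bring, the cause was not tested. At this depth *Psmb11* rests on few reads.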

Other observations

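Of all genes tested, 6.98, 7.68 and 15.3% were higher in all KO libraries than in any WT library of MPPs, CD115- CDPs and CLPs. The share of genes higher in all 3 populations was not counted. Chosen after its values were seen, *Psmd1*, a scaffold subunit of the 19S base, was higher in all KO libraries than in any WT library in all 3 populations without passing in any. It was 48.0, 47.3 and 48.3 FPKM in WT and 56.0, 53.9 and 55.9 FPKM in KO libraries of MPPs (log2 fold change 0.20, SE 0.0753, adjusted p = 0.172), 44.6, 42.1 and 52.2 FPKM in WT and 54.1, 55.8 and 64.8 FPKM in KO libraries of CD115- CDPs (log2 fold change 0.33, SE 0.147, adjusted p = 0.508, 0.0699 if blocked) and 45.2, 39.0 and 45.4 FPKM in WT and 55.4, 49.1 and 48.0 FPKM in KO libraries of CLPs (log2 fold change 0.23, SE 0.106, adjusted p = 0.189, 0.138 if blocked; limma). *Psme3*, the PA28 gamma activator of the nucleus, was 77.7, 76.8 and 79.4 FPKM in WT and 85.8, 84.4 and 85.2 FPKM in KO libraries of MPPs and 77.9, 84.8 and 72.6 FPKM in WT and 90.4, 89.8 and 91.2 FPKM in KO libraries of CD115- CDPs, without overlap in either, and 74.4, 75.3 and 82.0 FPKM in WT and 99.6, 79.3 and 78.6 FPKM in KO libraries of CLPs.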
